A study of Mus musculus with 12 samples.

Results

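Layer 2 and layer 3 projection neurons of the mouse cerebral cortex were compared at postnatal day 3 (P3), with 3 RNA libraries from each layer. These were 6 of the 12 libraries of a series that sampled the same layers again at P7. All animals were wild type. The cells had been labelled with the red fluorescent protein mCherry by electroporation in utero at a set time, cut out of the cortex and sorted by fluorescence, and each library pooled 2 to 3 pups. Layer was taken from the sample labels. The layer 3 library names carry the number 14 and the layer 2 names the number 15 in every library, with no explanation of the numbers in the sources, so that whatever they mark and the layer cannot be told apart. A gene entered the comparison if it reached 1 transcript per 1000000 (TPM) in at least 3 of the 6 libraries, which 16274 of 56734 genes did.

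Layers 2 and 3 hold callosal neurons, which send axons to the other hemisphere, and cortical neurons settle in inside-out order, so that layer 3 cells are born before layer 2 cells. Both layers express Cux1 and Cux2, while the nuclear receptor Rorb is best known as a layer 4 gene. Neurons carry 1 immobile primary cilium. Motile cilia, built by ependymal and choroid plexus cells under the transcription factors Foxj1 and Rfx2, need dynein arms, radial spokes and tektins that a primary cilium lacks. Transcripts were therefore sorted into 26 lists: 14 of neuronal identity and function, 11 of glia, progenitors, other cells and cilia, and 1 of Y-linked genes.

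Markers of cortical projection neurons were present in all 6 libraries, together with those of other cells. Slc17a7, the vesicular glutamate transporter of cortical projection neurons, measured 24.1, 18.8 and 19.96 TPM in the layer 2 libraries and 29.8, 34.99 and 35.3 TPM in the layer 3 libraries. Gad1, the GABA-synthesising enzyme of interneurons, stood at 5.199, 13.02 and 8.14 TPM against 2.76, 4.82 and 4.39 TPM. mCherry itself is not among the measured genes, so the label of the sorted cells was not checked. Between 15349 and 16569 genes reached 1 TPM in a P3 library. The correlation of log2(TPM + 1) was 0.960 to 0.982 within a layer and 0.923 to 0.962 between layers. The first principal component of the 6 libraries carried 49.8% of the variance and separated the layers, with P3 layer 2 replicate 2 and P3 layer 3 replicate 1 at its ends.

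At P3 genes listed for astrocytes, progenitors, dividing cells and motile cilia were more often called higher than lower in layer 2. Those of most neuronal lists were more often called lower. Genes were called where limma's adjusted p (Benjamini-Hochberg, over all tested genes) was under 0.05. Of the 16274 genes, 1653 (10.2%) were called, 886 (5.44%) higher and 767 (4.71%) lower in layer 2. These shares are the background for the counts of single lists below. With all layer 3 values under 1 TPM, 210 genes entered the test only through layer 2, and 99 of them were called. Only through layer 3 entered 64, of which 30 were called. Those calls stay in the counts but are no support for a difference. Among them are 12 of the motile cilium list, 1 of the radial glia and progenitor list and 1 of the interneuron list. Among the 420 tested genes that stand in neuronal lists alone, 13 (3.10%) were higher and 89 (21.2%) lower in layer 2, with a median log2 fold change, layer 2 minus layer 3, of -0.22. Of 331 genes in the lists of other cells and cilia alone, 149 (45%) were higher and 2 (0.604%) lower, with a median of 1.06. Those lists were not alike. Interneuron genes, themselves of neurons, were higher in 6 of 24 members (25%), and no microglia gene of 20 was called. Genes on no list numbered 15516, of which 724 (4.67%) were higher and 673 (4.34%) lower. Over all tested genes the median was 0.06. All fold changes come from log2(TPM + 1), so those of low genes are understated, and values after ± are standard errors for fold changes and SDs of 3 libraries for levels.

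**Figure D1:**
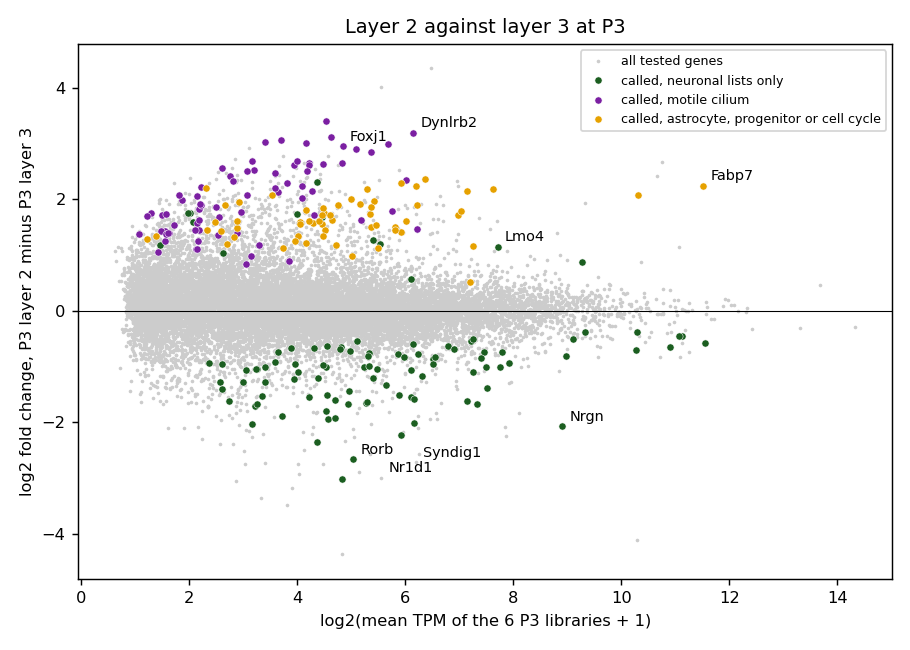
Log2 fold change at P3, layer 2 minus layer 3 (vertical), against the log2 of the mean TPM of the 6 P3 libraries + 1 (horizontal), 1 point per gene for 16274 tested genes. Coloured points are called list members: those of neuronal lists lie mostly below 0 (89 lower, 13 higher), and all 72 called motile cilium genes lie above 0.

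The call counts depended on single libraries and on what the fit was adjusted for. Left out in turn, P3 layer 2 replicate 2 lowered the count to 626, P3 layer 2 replicate 3 to 836, P3 layer 3 replicate 1 to 1101 and P3 layer 3 replicate 3 to 1026. With a library's list score added to the model, limma called 239 genes for the astrocyte score, 15 for the cell cycle score, 14 for the pan-neuronal score, 6 for the Y-linked score and 0 for the motile cilium score. Unadjusted p-values under 0.05 numbered 511 with the motile cilium score, against 4057 without a score. These scores differ between the layers themselves, and the median standard error rose from 0.244 without a score to 0.639 with the motile cilium score. The 6 genes called beside the Y-linked score were Nr1d1, Cpne9, Brinp1, Syndig1, Vsnl1 and Ngef, all lower in layer 2, of which Cpne9, Vsnl1 and Ngef were chosen after their values were seen.

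Pan-neuronal genes had 7 of 25 members lower in layer 2 and none higher, with a median log2 fold change of -0.38. That median was 0.025 with the libraries scaled to the list itself and 0.077 with the motile cilium score in the model. None of the 25 was called lower with the cell cycle, motile cilium, pan-neuronal or Y-linked score. With the astrocyte score 1 was called lower and 1 higher. The scaling and the pan-neuronal score are made from this list, so a median near 0 and few calls under them were set in advance. The summed level of the 25 genes was 12453, 9615 and 12180 TPM in the layer 2 libraries and 17128, 14764 and 14778 TPM in those of layer 3. The ranges did not overlap. Rbfox3, the nuclear marker NeuN of postmitotic neurons, measured 134, 72.97 and 99.99 TPM in the layer 2 libraries and 271, 249 and 262 TPM in the layer 3 libraries. Every layer 3 value was above every layer 2 value, and the log2 fold change was -1.38 ± 0.17 (adjusted p = 0.00064). Tubb3, neuronal tubulin, stood at a log2 fold change of -0.38 with an adjusted p of 0.078. In bulk RNA, fewer cells of a type and less RNA per cell cannot be told apart. Levels were therefore also set relative to the pan-neuronal list. Whether neuronal transcripts share a common shift was not tested, and the log2 fold changes of that list ran from -1.38 to 0.32.

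**Figure D2:**
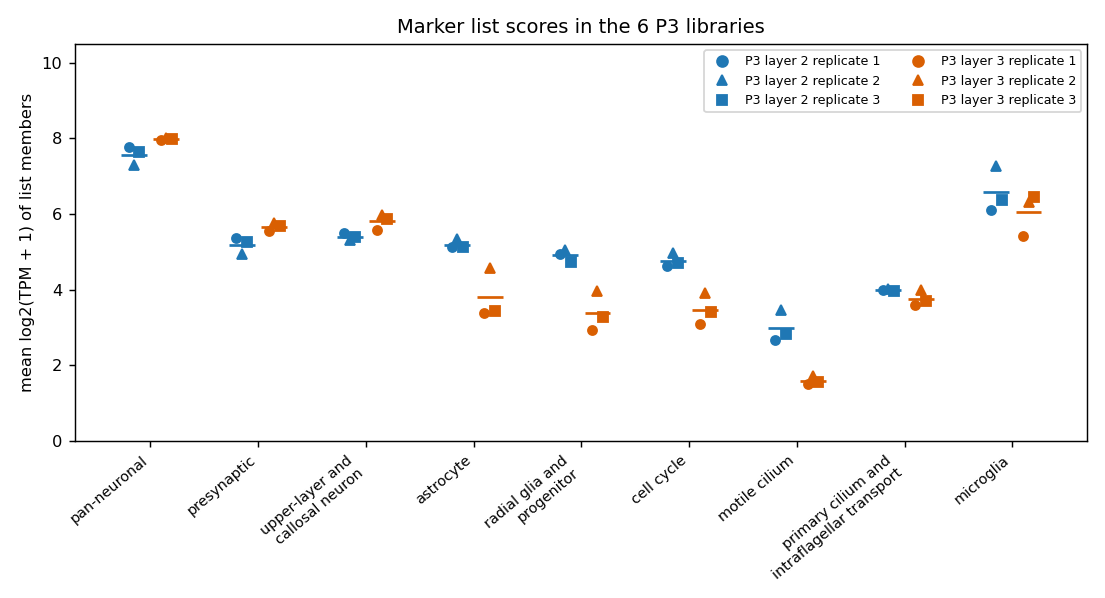
Mean log2(TPM + 1) of the members of 9 gene lists (vertical) in each of the 6 P3 libraries, with a line at the mean of each layer's 3 libraries. The motile cilium score is 2.99 ± 0.41 in layer 2 and 1.59 ± 0.11 in layer 3, and the pan-neuronal score 7.58 ± 0.24 and 7.98 ± 0.03.

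With each library scaled to an equal pan-neuronal level, the median of all genes moved from 0.06 to 0.44, and 3551 genes were higher and 312 lower in layer 2. The medians of 6 neuronal lists that were below 0 without this scaling turned above 0 and stayed under the 0.44 of all genes. They were those of pan-neuronal (0.025, set near 0 by the scaling), projection neuron identity (0.20), immature neuron (0.16), ion channel (0.032), adhesion (0.19) and secreted ligand genes (0.24). Of the 89 neuronal-list genes lower without that scaling, 87 kept their direction and 53 their call. With the astrocyte score in the model 36 of the 89 were still called, 58 in a fit of the P3 libraries alone and 56 without 3 libraries that stood apart (P3 layer 2 replicate 2, P3 layer 3 replicate 1 and P7 layer 3 replicate 1). A count over those 4 settings and the 6 fits that each left out 1 P3 library was made after the values were seen. It left 34 of the 89 lower genes called in all 10 fits and none of the 13 higher ones, and it does not include the cell cycle, motile cilium, pan-neuronal and Y-linked scores, under which most calls ended. Single libraries also moved the counts of several neuronal lists. With P3 layer 2 replicate 2 left out the lower members fell from 7 to 4 in the projection neuron identity list, from 8 to 5 in the layer 4 list, from 7 to 4 in the postsynaptic list, from 11 to 6 in the receptor list and from 4 to 2 in the adhesion list. Omitting the third layer 3 library gave 4 in the identity list and 5 in the layer 4 list, omitting the third layer 2 library gave 4 in the postsynaptic and 6 in the receptor list, and omitting layer 3 replicate 1 gave 9 in the adhesion list.

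Genes of layer 4 had the lowest median of the neuronal lists. Of 19 tested, 8 were lower and 2 higher in layer 2, and the median log2 fold change was -0.96. Rorb, the nuclear receptor that specifies layer 4 fate, measured 9.91, 5.96 and 6.33 TPM in the layer 2 libraries and 26.9, 60.9 and 80.4 TPM in the layer 3 libraries. The ranges were apart, and the log2 fold change of -2.66 ± 0.34 (adjusted p = 0.00071) kept its call in all 10 fits. Rora, its relative in the same receptor family, measured 1.45, 2.05 and 2.84 TPM in the layer 2 libraries and 5.296, 7.48 and 14.8 TPM in the layer 3 libraries, a log2 fold change of -1.63 ± 0.30 (adjusted p = 0.0054), and lost its call with the astrocyte score (adjusted p = 0.078). Plcxd2, which encodes a phospholipase C-like protein, and Cadps2, which primes dense-core vesicles for release, were lower by -1.94 ± 0.28 and -1.79 ± 0.20 on the log2 scale (adjusted p = 0.0012 and 0.00031). Both kept their calls in all 10 fits. The protocadherin Pcdh20 was lower as well, at -1.27 (adjusted p = 0.032). Leaving out P3 layer 2 replicate 2 ended the call at an adjusted p of 0.12. Scnn1a, a sodium channel subunit and layer 4 driver gene, went the other way at low level. It measured 2.17, 3.69 and 2.597 TPM in the layer 2 libraries and 0.64, 0.725 and 0.649 TPM in the layer 3 libraries, a log2 fold change of 1.17 ± 0.31 (adjusted p = 0.032), and lost its call without P3 layer 3 replicate 3 (adjusted p = 0.077). All its layer 3 values were under 1 TPM, so it entered the test only through layer 2, where it was high, and its p is no support for the difference.

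Upper-layer and callosal genes were lower in layer 2 in 10 of 29 members and higher in 1, with a median of -0.46. Cux1 and Cux2, homeobox factors of layers 2 to 4, were both lower. Cux2 measured 30.8, 18.997 and 22.7 TPM in the layer 2 libraries and 48.9, 52.5 and 45.4 TPM in the layer 3 libraries, so that the layers were apart, and the log2 fold change was -1.01 ± 0.18 (adjusted p = 0.0041). Relative to the pan-neuronal level it was -0.62 with an adjusted p of 0.026, and Cux1 at -0.44 no longer passed (adjusted p = 0.10). Hspb3, a small heat-shock protein, measured 27.9, 30.7 and 22.9 TPM in the layer 2 libraries and 129.9, 83.1 and 128 TPM in the layer 3 libraries. All layer 3 libraries were at least at 83.1 TPM and no layer 2 library was above 30.7 TPM, a log2 fold change of -2.01 ± 0.23 (adjusted p = 0.00034). Pou3f1, a POU-domain transcription factor of callosal neurons, ran from 81.2, 61.1 and 59.3 TPM in layer 2 to 303, 160.1 and 179 TPM in layer 3 (-1.61 ± 0.22, adjusted p = 0.00086). Inhba, the activin beta A subunit, was tight in both layers at 12.5, 14.3 and 14.1 TPM against 44.3, 44.1 and 47.97 TPM. Its log2 fold change was -1.67 ± 0.16 (adjusted p = 0.00018). Plxnd1, a semaphorin receptor, was lower by -1.53 ± 0.19 (adjusted p = 0.00064). Pou3f2, another factor of the POU family, stood at -0.22 and did not pass (adjusted p = 0.49).

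Deep-layer genes had 3 members lower (11.5%) and 2 higher (7.69%) of 26, with a median of 0.28. Of all tested genes 4.71% were lower and 5.44% higher. Foxp1, a forkhead factor of layers 3 to 6, measured 38.2, 34.3 and 31.3 TPM in the layer 2 libraries and 89.4, 128 and 101 TPM in the layer 3 libraries. The lowest layer 3 library was at 89.4 TPM and the highest layer 2 library at 38.2 TPM, a log2 fold change of -1.58 ± 0.22 (adjusted p = 0.0011). Bcl6, a transcriptional repressor that promotes neurogenesis, followed with 13.4, 12.5 and 8.01 TPM in the layer 2 libraries and 33.8, 39.6 and 27.8 TPM in the layer 3 libraries and a log2 fold change of -1.51 ± 0.22 (adjusted p = 0.0014). Neither Bcl11b (0.53, adjusted p = 0.39) nor Fezf2 (0.33, adjusted p = 0.53), the determinants of subcerebral neurons, passed. Of the immature neuron genes 5 were lower (17.9%) and 2 higher (7.14%) of 28, with a median of -0.24. The fit without layer 2 replicate 2 gave 1 lower, 1 higher and a median of -0.039, and in the P3 libraries alone 1 was lower and 1 higher. Lower members numbered 2 when replicate 3 of either layer was left out, 3 when layer 3 replicate 1 was, and 4, with 5 higher, when layer 3 replicate 2 was. Dcx, the microtubule protein of migrating neurons, stood at -0.31 (adjusted p = 0.26).

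Several of the strongest differences were in genes on no list. Nr1d1, the clock repressor REV-ERB alpha, measured 13.3, 6.71 and 9.13 TPM in the layer 2 libraries and 72.9, 82.9 and 90.3 TPM in the layer 3 libraries. The lowest layer 3 library was more than 5 times the highest layer 2 library, and the log2 fold change was -2.99 ± 0.20 (adjusted p = 9.8e-06). Syndig1, a transmembrane protein of excitatory synapses that binds AMPA receptors, measured 18.96, 13.3 and 23.98 TPM in the layer 2 libraries and 126, 129 and 121 TPM in the layer 3 libraries. The layer 3 values lay within 8 TPM of each other, and the log2 fold change was -2.72 ± 0.20 (adjusted p = 1.6e-05). Brinp1, a neural protein that holds back cell cycle entry, measured 22.7, 22.5 and 17.1 TPM in the layer 2 libraries and 98.5, 135 and 157 TPM in the layer 3 libraries, again with the layers apart (-2.58 ± 0.19, adjusted p = 1.5e-05). These 3 genes were also called beside the cell cycle, pan-neuronal and Y-linked scores. Pde8b, a cyclic AMP phosphodiesterase, measured 4.89, 4.68 and 3.14 TPM in the layer 2 libraries and 21.8, 32.04 and 32.5 TPM in the layer 3 libraries (-2.50 ± 0.22, adjusted p = 7.9e-05) and was called beside the first 2 of those scores.

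Lower genes with little transcript left in layer 2 included a homeobox factor and a G-protein regulator. Msx3, a homeobox gene known from the dorsal neural tube, measured 2.899, 0.549 and 0.973 TPM in the layer 2 libraries and 21.7, 23.2 and 29.4 TPM in the layer 3 libraries. Its values in layer 2 were all under 3 TPM and those in layer 3 all above 21 TPM (-3.48 ± 0.35, adjusted p = 0.00018). Rgs13, which ends G-protein signals, measured 0.328, 0.858 and 0.986 TPM in the layer 2 libraries and 14.5, 11.7 and 25.9 TPM in the layer 3 libraries (-3.36 ± 0.44, adjusted p = 0.00077). With every layer 2 value under 1 TPM, Rgs13 entered the test only through layer 3, where it was high, so its p at P3 is no support for the difference. It was tested in 9 of the 12 fits that each left out 1 library. Sidt1, a relative of a nematode double-stranded RNA channel, measured 6.59, 1.17 and 2.14 TPM in the layer 2 libraries and 24.8, 32.1 and 25.4 TPM in the layer 3 libraries (-2.92 ± 0.35, adjusted p = 0.00052). Ostn, a secreted peptide, measured 13.01, 2.64 and 3.09 TPM in the layer 2 libraries and 48.95, 37.3 and 58.4 TPM in the layer 3 libraries (-3.03 ± 0.58, adjusted p = 0.006), and lost its call without the 3 libraries that stood apart (adjusted p = 0.068). The small membrane protein Smim43 (-2.39 ± 0.26, adjusted p = 0.00031) and the keratin Krt12 (-2.52 ± 0.39, adjusted p = 0.0019) were lower too. The heparan sulfate sulfotransferase Hs3st5 was lower at -2.27 ± 0.55 (adjusted p = 0.021). Leaving out P3 layer 3 replicate 3 ended the call at an adjusted p of 0.080.

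**Figure D3:**
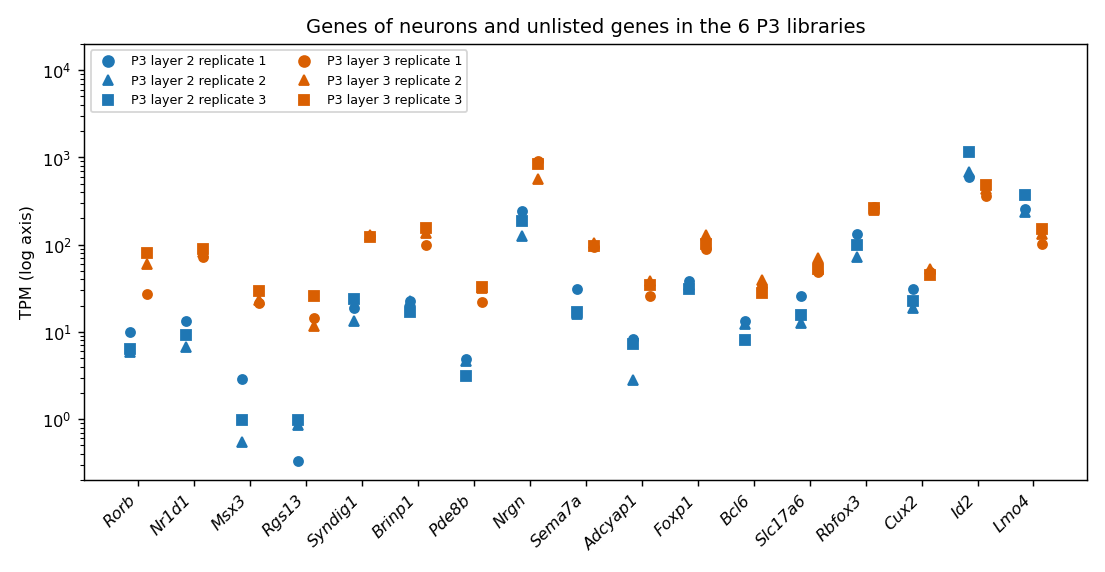
TPM on a log axis (vertical) of 17 genes in each of the 6 P3 libraries, blue for layer 2 and orange for layer 3, 1 symbol per replicate number. Rorb to Cux2 are higher in all 3 layer 3 libraries than in any layer 2 library, and Id2 and Lmo4 are higher in all 3 layer 2 libraries.

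Synaptic genes were lower in layer 2 or did not pass. Of the presynaptic list 9 of 29 were lower, none was higher and the median was -0.49, and of the postsynaptic list 7 of 30 were lower, none was higher and the median was -0.39. Nrgn, the calmodulin-binding protein neurogranin of dendritic spines that stands in both lists, measured 242, 127 and 186 TPM in the layer 2 libraries and 918, 560.3 and 843 TPM in the layer 3 libraries. The ranges were far apart, with a log2 fold change of -2.07 ± 0.22 (adjusted p = 0.00023). Baiap2, a scaffold that links small GTPases to spine actin, measured 30.5, 24.3 and 27.2 TPM in the layer 2 libraries and 81.1, 69.96 and 60.7 TPM in the layer 3 libraries (-1.33 ± 0.16, adjusted p = 0.0005). The release machinery genes Stx1a, a plasma membrane SNARE, and Cplx2, a complexin that clamps it, were lower by -1.02 ± 0.13 and -1.07 ± 0.15 (adjusted p = 0.00077 and 0.00094). Camk2a, the kinase of synaptic plasticity, was low at this age, at 5.46, 6.17 and 6.48 TPM against 10.99, 14.2 and 14.5 TPM (-1.01 ± 0.15, adjusted p = 0.0015). All 5 kept their calls in the 10 fits.

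Receptor genes were lower in 11 of 44 members and higher in none, with a median of -0.31. Grm2, a presynaptic metabotropic glutamate receptor, measured 14.8, 12.01 and 9.26 TPM in the layer 2 libraries and 34.4, 42.1 and 37.9 TPM in the layer 3 libraries, with no overlap (-1.61 ± 0.21, adjusted p = 0.00086). The muscarinic receptor Chrm1 was lower by -1.22 ± 0.17 (adjusted p = 0.0012). Drd1, a dopamine receptor, measured 2.22, 3.47 and 3.3003 TPM in the layer 2 libraries and 22.6, 15.8 and 4.03 TPM in the layer 3 libraries. Layer 3 replicate 1 held the highest value, the log2 fold change was -1.67 ± 0.43 (adjusted p = 0.029), and the call ended without that library (adjusted p = 0.10). Ion channel genes were lower in 9 of 45 members and higher in 1, with a median of -0.30. Kcnip2, an auxiliary subunit of A-type potassium channels, measured 20.8, 12.2 and 14.9 TPM in the layer 2 libraries and 37.4, 45.1 and 51.2 TPM in the layer 3 libraries (-1.45 ± 0.18, adjusted p = 0.00064). Kcnh1, an ether-a-go-go potassium channel, was lower by -1.71 ± 0.27 (adjusted p = 0.0019). The channel-interacting protein Kcnip3, known also as the transcriptional repressor DREAM, was the 1 higher member at 1.68 ± 0.42 (adjusted p = 0.024). Leaving out P3 layer 3 replicate 3 ended the call at an adjusted p of 0.088.

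Among wiring genes the differences were spread over few members. Axon guidance genes were lower in 9 of 45 members and higher in 1, while their median of 0.06 was that of all genes. Sema7a, a membrane-anchored semaphorin, measured 30.99, 15.9 and 16.7 TPM in the layer 2 libraries and 92.9, 105 and 96.7 TPM in the layer 3 libraries. The lowest layer 3 library held nearly 3 times the TPM of the highest layer 2 library, and the log2 fold change was -2.22 ± 0.24 (adjusted p = 0.00028). The Eph receptors Epha8 and Ephb6 were lower by -1.88 ± 0.28 and -1.54 ± 0.18 (adjusted p = 0.0014 and 0.00052). Cadherins and other adhesion genes were lower in 4 of 46 members (8.7%, against 4.71% of all tested genes) and higher in none, with a median of -0.16. Cdh6, a type II cadherin, measured 10.1, 8.69 and 10.3 TPM in the layer 2 libraries and 29.5, 47.5 and 44.6 TPM in the layer 3 libraries (-1.93 ± 0.21, adjusted p = 0.00033), and the contactin Cntn6 was lower by -1.55 ± 0.29 (adjusted p = 0.0054).

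Secreted ligand genes were lower in 8 of 45 members and higher in 1, with a median of -0.03. Adcyap1, the neuropeptide PACAP, measured 8.19, 2.79 and 7.21 TPM in the layer 2 libraries and 25.99, 38.7 and 34.3 TPM in the layer 3 libraries. The ranges did not overlap, and the log2 fold change was -2.35 ± 0.29 (adjusted p = 0.00057). The growth factor Fgf9 measured 4.04, 2.11 and 1.59 TPM in the layer 2 libraries and 11.6, 11.7 and 16.4 TPM in the layer 3 libraries (-2.03 ± 0.34, adjusted p = 0.0028), and lost its call with the astrocyte score (adjusted p = 0.083). Cck, the peptide cholecystokinin, measured 70.997, 50.004 and 98.6 TPM in the layer 2 libraries and 389, 162 and 187 TPM in the layer 3 libraries. Its log2 fold change was -1.68 ± 0.33 (adjusted p = 0.0073), with adjusted p-values of 0.14 with the astrocyte score and 0.056 without the 3 libraries that stood apart. The higher member was the pentraxin Nptx2 at 1.60 ± 0.48 (adjusted p = 0.049), called in 2 of the 12 fits that each left out 1 library.

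Projection neuron identity genes were lower in 7 of 23 members (30.4%) and higher in 2 (8.7%), with a median of -0.20. The shares over all tested genes were 4.71% and 5.44%. Slc17a6, the glutamate transporter of young cortical and of subcortical neurons, measured 25.7, 12.6 and 15.5 TPM in the layer 2 libraries and 49.2, 69.7 and 52.8 TPM in the layer 3 libraries (-1.66 ± 0.22, adjusted p = 0.00076). The cortical transporter Slc17a7 described above was lower by -0.65 ± 0.17 (adjusted p = 0.027), and relative to the pan-neuronal level it was at -0.26 (adjusted p = 0.21), while its call also ended without P3 layer 2 replicate 2 (adjusted p = 0.11). Both higher members are regulators. Lmo4, a LIM-domain cofactor of callosal identity, measured 259.7, 234 and 372 TPM in the layer 2 libraries and 101, 132 and 153 TPM in the layer 3 libraries, with every layer 2 value above every layer 3 value (1.15 ± 0.27, adjusted p = 0.018). Id2, an inhibitor of helix-loop-helix factors, measured 591, 688 and 1168 TPM in the layer 2 libraries and 359.97, 431 and 489.8 TPM in the layer 3 libraries (0.88 ± 0.20, adjusted p = 0.017). Lmo4 lost its call without P3 layer 2 replicate 3 (adjusted p = 0.082) and Id2 without P3 layer 3 replicate 1 (adjusted p = 0.062).

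The other neuronal-list genes higher in layer 2 included several that glia or progenitors also express. Nfia, a nuclear factor of astrocyte and deep-layer development, measured 23.9, 18.2 and 27.6 TPM in the layer 2 libraries and 3.65, 10.05 and 6.27 TPM in the layer 3 libraries (1.73 ± 0.43, adjusted p = 0.022). Btg2, an early response gene that also marks progenitors about to divide into neurons, measured 28.2, 41.4 and 27.9 TPM in the layer 2 libraries and 3.82, 11.8 and 3.75 TPM in the layer 3 libraries (2.31 ± 0.45, adjusted p = 0.0066). Sox11, a transcription factor of young neurons, measured 81.7, 69.3 and 91.4 TPM in the layer 2 libraries and 48.9, 55.01 and 58.3 TPM in the layer 3 libraries (0.56 ± 0.15, adjusted p = 0.03). Nfia and Sox11 lost their calls without P3 layer 2 replicate 3 (adjusted p = 0.083 and 0.12). With the astrocyte score in the model none of the 13 was called. Activity-regulated genes had 3 members higher (10.7%) and 2 lower (7.14%) of 28, with a median of 0.13. The shares over all tested genes were 5.44% and 4.71%. Without P3 layer 3 replicate 2 there were 6 higher and 1 lower, and without any other 1 of the P3 libraries 1 was higher. Egr1, an immediate early gene, was higher at 1.20 ± 0.32 (adjusted p = 0.032), while Npas4, an activity-dependent factor of neurons, was lower at -1.29 ± 0.34 (adjusted p = 0.03). Without P3 layer 2 replicate 2 the adjusted p of Egr1 was 0.12, and without P3 layer 2 replicate 3 that of Npas4 was 0.11.

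Many genes of radial glia, progenitors and astrocytes were called higher in layer 2, in counts that rested on single libraries. Of 28 tested radial glia and progenitor genes 22 were higher and none lower, with a median log2 fold change of 1.48. The fit without layer 2 replicate 2 left 6 of 27 higher, leaving out layer 3 replicate 1 left 11, leaving out each of the other P3 libraries gave 13 to 25, and without the 3 libraries that stood apart 3 of 27. Their summed level was 7424, 10601 and 6917 TPM in layer 2 and 1332, 2963 and 1667 TPM in layer 3. Fabp7, the radial glial fatty-acid binding protein, measured 4289.97, 6367 and 3759 TPM in the layer 2 libraries and 655, 1666 and 878 TPM in the layer 3 libraries (2.25 ± 0.47, adjusted p = 0.0098, or 0.054 without P3 layer 2 replicate 2). Ptprz1, a receptor phosphatase of radial glia and oligodendrocyte precursors, measured 129.5, 123 and 145 TPM in the layer 2 libraries and 11.1, 58.3 and 22.8 TPM in the layer 3 libraries, so that all layer 2 libraries were close together and layer 3 replicate 2 was the highest of its group (2.37 ± 0.58, adjusted p = 0.021). Without P3 layer 3 replicate 1 its adjusted p was 0.080, and that of Slc1a3, described next, was 0.087. Astrocyte genes were higher in 11 of 22 members and lower in none, with log2 fold changes from -2.15 to 2.28 and a median of 1.69. The count was 1 without layer 2 replicate 2 and without replicate 1 or 3 of layer 3, 4 and 3 without replicates 1 and 3 of layer 2, and 0 of 21 without the 3 libraries that stood apart, where the median was 1.34. Their summed level overlapped between the layers, at 2823, 5641 and 2975 TPM in layer 2 and 2256, 2512 and 3167 TPM in layer 3. TPM ranges were apart with layer 2 above in 18 members and with layer 3 above in 1, against 16.5% and 11.4% of all tested genes. With median-ratio scaling, quantile normalization, the replicate block or array weights, 1 astrocyte gene was called lower. Slc1a3, the glutamate transporter GLAST that stands in both lists, measured 223, 219 and 219 TPM in the layer 2 libraries and 22.6, 115 and 44.9 TPM in the layer 3 libraries (2.14 ± 0.54, adjusted p = 0.024). Aqp4, the water channel of mature astrocytes, at 2.08 ± 0.70 (adjusted p = 0.078), and Gfap, their intermediate filament, at 1.53 ± 0.58 (adjusted p = 0.12), did not pass. Layer 3 replicate 2 held the most of both in its group, 1.76, 18.1 and 3.85 TPM being the Aqp4 values of layer 3.

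Cell cycle genes were higher in 28 of 40 members and lower in none, with a median of 1.45. The count was 15 with layer 2 replicate 2 left out, 16 with layer 2 replicate 3 or with replicate 1 or 3 of layer 3 left out, and without the 3 libraries that stood apart it was 4. Their summed level was 1430, 1876 and 1471 TPM in layer 2 and 498, 796 and 593 TPM in layer 3. Ccnb1, the mitotic cyclin B1, measured 57.8, 66.7 and 61.5 TPM in the layer 2 libraries and 7.49, 22.4 and 12.1 TPM in the layer 3 libraries (2.19 ± 0.46, adjusted p = 0.0095), and Pclaf, a replication clamp partner, measured 51.4, 79.7 and 59.4 TPM in the layer 2 libraries and 13.6, 18.8 and 17.7 TPM in the layer 3 libraries (1.86 ± 0.26, adjusted p = 0.0011). Mki67, the antigen Ki-67 of dividing cells, was at 6.45, 7.18 and 8.24 TPM against 0.837, 2.48 and 2.203 TPM (1.59 ± 0.37, adjusted p = 0.018, or 0.068 without P3 layer 2 replicate 3). Of the oligodendrocyte lineage 3 of 19 members were higher (15.8%, against 5.44% of all tested genes) and none lower, with a median of 1.03. Only 1 was higher without any 1 P3 library other than P3 layer 3 replicate 2, without which 5 were. Olig1 and Olig2, factors of the precursors, were higher by 2.33 ± 0.60 and 2.31 ± 0.63 (adjusted p = 0.027 and 0.035), and both lost their calls without P3 layer 3 replicate 3 (adjusted p = 0.099 and 0.12). Mbp, the myelin protein of mature cells, stood at 0.52 (adjusted p = 0.7). Interneuron genes were higher in 6 of 24 members and lower in none, with a median of 0.88. Only 1 was called with layer 2 replicate 2 or with replicate 1 or 3 of layer 3 left out, 2 were with layer 2 replicate 1 left out, and without the 3 libraries that stood apart 1 of 23 was called and the median was 0.36. The called members include the transcription factors Dlx2 (1.92 ± 0.31, adjusted p = 0.0025), Dlx1 and Sox6, which progenitors also express, while Gad1 was at 0.92 (adjusted p = 0.3). With the cell cycle score in the model no member of any neuronal list was called, and the astrocyte score left the 36 lower genes given above. The scores differ between the layers, so the part of these cells in the neuronal differences and the layer cannot be told apart.

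Motile cilium genes were higher in layer 2 across the axoneme. Of 123 listed genes 101 were tested, and 72 were higher and none lower, with log2 fold changes from -0.94 to 3.40 and a median of 1.58. TPM ranges were apart with layer 2 above in 83 members, against 16.5% of all tested genes. Layer 2 replicate 2 held the highest value in 89 of the 101. The summed level was 1461, 3086 and 1719 TPM in layer 2 and 663, 648 and 645 TPM in layer 3, so that the layer 3 libraries were alike and the layer 2 libraries were not. A mean of 5 TPM was reached by 69 of the 101 in layer 2 and by 24 in layer 3. All layer 3 values were under 1 TPM in 14 of the 101, 12 of them called, which entered the test only through layer 2. The calls of those 12 are no support for a difference. With P3 layer 2 replicate 2 left out, 43 of 85 tested members were called. Without the 3 libraries that stood apart, 59 of the 72 were still tested and 34 were called, and with the astrocyte score 24 of 72 were called, all in the same direction.

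Foxj1, the factor that switches on motile cilium genes, measured 33.1, 84.97 and 31.9 TPM in the layer 2 libraries and 2.79, 7.96 and 5.099 TPM in the layer 3 libraries. The lowest layer 2 library had 4 times the TPM of the highest layer 3 library, and the log2 fold change was 2.95 ± 0.39 (adjusted p = 0.00082). Dynlrb2, a dynein light chain, measured 82.6, 206 and 94.6 TPM in the layer 2 libraries and 11.2, 11.7 and 12.8 TPM in the layer 3 libraries (3.20 ± 0.43, adjusted p = 0.00086). Meig1, known from sperm flagellum assembly in the mouse, measured 50.8, 153 and 68.2 TPM in the layer 2 libraries and 7.93, 9.83 and 10.2 TPM in the layer 3 libraries (3.00 ± 0.33, adjusted p = 0.00033). Pifo, which acts in cilium disassembly, measured 29.1, 71.2 and 30.1 TPM in the layer 2 libraries and 4.13, 3.92 and 3.16 TPM in the layer 3 libraries (3.11 ± 0.40, adjusted p = 0.00076). All 4 stayed called in each fit that left out 1 library and in that with the astrocyte score. Among genes outside the list, the radial spoke protein Dnajb13 (2.72 ± 0.30, adjusted p = 0.00033), the axoneme protein Pierce1 (2.54 ± 0.38, adjusted p = 0.0014), the dynein light chain Dynlt4 (2.92 ± 0.42, adjusted p = 0.0012) and the outer dense fibre relative Odf3b (2.66 ± 0.43, adjusted p = 0.0023) were higher as well. Ccna1, the cyclin A of the germ line, measured 24.6, 63.3 and 34.6 TPM in the layer 2 libraries and 3.34, 7.04 and 4.18 TPM in the layer 3 libraries (2.78 ± 0.35, adjusted p = 0.00069). Members that did not pass, chosen after their values were seen, included Rfx3, a factor for both kinds of cilium, at 0.54 (adjusted p = 0.16), Tppp3 at 0.40 (adjusted p = 0.32), the assembly factor Ccdc39 at 0.13 (adjusted p = 0.72) and Tekt2 at -0.94 (adjusted p = 0.065).

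**Figure D4:**
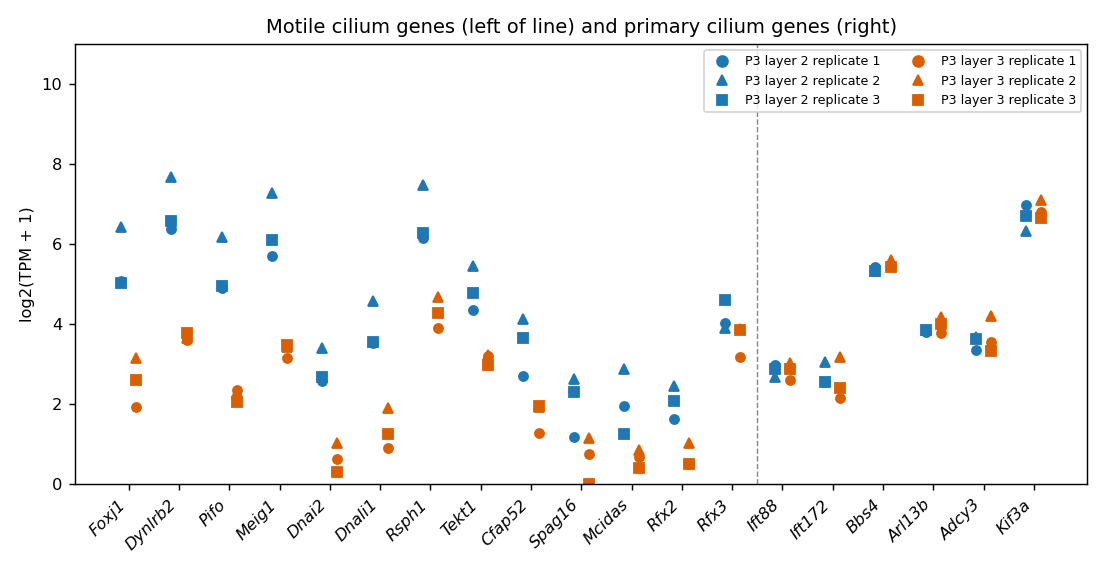
Log2(TPM + 1) (vertical) of 13 motile cilium genes, left of the dashed line, and 6 primary cilium genes, right of it, in each of the 6 P3 libraries, genes chosen after their values were seen. Foxj1 to Rfx3 are higher in all 3 layer 2 libraries than in any layer 3 library, though Rfx3 was not called, and among the primary cilium genes the layers overlap except for Bbs4, which is slightly higher in layer 3.

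Genes of motile cilia are bound by RFX factors at the X-box, a palindrome of GTTGCC arms. Shown are 4 promoter stretches of called genes, of which that of Iqca holds the full X-box and the others the arm GTTGCCAT alone. They are RefSeq sequences of build GRCm38.p6, while the expression values are on GRCm39, and are written 5′ to 3′ on the strand of the gene, with the motif in capitals and 20 bases on either side. Lrrc23, a radial spoke protein, has the arm 31 bases before the start site (chr6:124779739-124779786, minus strand), and Mlf1 97 bases before (chr3:67373972-67374019, plus strand). In Cfap161, a cilium protein, the capitals are the arm on the opposite strand, 33 bases before the start (chr7:83794853-83794900, minus strand). Iqca, a dynein regulatory subunit, holds the full X-box 86 bases before the start (chr1:90153503-90153556, minus strand). Stretches of Cfap298 with the full X-box (log2 fold change 0.13) and of Sntn with the arm (0.74) were also found and are not shown.
Lrrc23: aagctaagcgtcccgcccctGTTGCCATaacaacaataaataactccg
Mlf1: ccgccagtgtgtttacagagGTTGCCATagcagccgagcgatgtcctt
Cfap161: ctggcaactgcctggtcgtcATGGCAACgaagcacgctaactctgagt
Iqca: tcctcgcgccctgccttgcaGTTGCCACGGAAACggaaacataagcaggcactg

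In the genes shown the layers were apart. Lrrc23 measured 34.6, 98.8 and 43.3 TPM in the layer 2 libraries and 3.42, 12.9 and 5.09 TPM in the layer 3 libraries (2.90 ± 0.50, adjusted p = 0.0032). Mlf1 measured 36.1, 74.5 and 34.01 TPM in the layer 2 libraries and 7.44, 4.19 and 8.04 TPM in the layer 3 libraries (2.65 ± 0.32, adjusted p = 0.00057). Cfap161 was higher by 2.47 ± 0.37 (adjusted p = 0.0015) and Iqca by 1.99 ± 0.42 (adjusted p = 0.011). All layer 3 values of Iqca were under 1 TPM, so it entered the test only through layer 2. Its p is no support for the difference. Promoter windows of 300 bases, 250 before and 50 after the start, were found for 52 of the 72 called motile cilium genes, 60 windows in all. Searched on both strands, the arm GTTGCCAT was in 10 of the 60 (16.7%), against 442 of all 32851 promoters (1.35%), 11 of 85 windows of tested motile cilium genes (12.9%) and 1 of 54 of primary cilium genes (1.85%). The full X-box, GTTNCC, any 2 bases and GGNAAC, was in 2 of the 60 (3.33%), 3 of 54 primary cilium windows (5.56%) and 148 of all promoters (0.451%). It can overlap the arm where its letters allow. The FOXJ1 core GTAAACA was in 3 of the 60 (5%) and in 1199 of all promoters (3.65%). Of 117 windows of 87 neuronal-list or unlisted named genes lower in layer 2, none held the arm, the X-box or the ROR element core TAGGTCA, which 856 of all promoters hold (2.61%). Of the 14202 promoters of genes tested at P3, 186 held the arm (1.31%) and 79 the X-box (0.556%). The FOXJ1 core was in 364 of them (2.56%) and the ROR element core in 254 (1.79%). These matches are letters in a window, and binding was not measured.

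Primary cilium and intraflagellar transport genes differed less. Of 53 tested, 7 were higher (13.2%) and 1 lower (1.89%) in layer 2, with a median of 0.17. Of all tested genes 5.44% were higher and 4.71% lower. The summed level of the list was 1694, 1790 and 1653 TPM in layer 2 and 1594, 1659 and 1644 TPM in layer 3. The highest layer 3 library lay above the lowest layer 2 library. Higher members numbered 1 with layer 2 replicate 2 left out, 2 with replicate 3 of either layer left out and 3 with replicate 1 of either layer left out. In the first of those fits 246 of all 15749 tested genes were higher. B9d1, a transition zone protein, measured 44.6, 70.7 and 41.6 TPM in the layer 2 libraries and 20.7, 24.7 and 27.3 TPM in the layer 3 libraries (1.05 ± 0.21, adjusted p = 0.0069). Smo, the Hedgehog signal transducer that acts in the primary cilium, measured 8.54, 12.4 and 8.95 TPM in the layer 2 libraries and 2.02, 5.76 and 2.66 TPM in the layer 3 libraries (1.36 ± 0.36, adjusted p = 0.029). Leaving out P3 layer 2 replicate 2 raised the adjusted p to 0.12. The lower member was Kif17, a kinesin of cilia and dendrites, listed at 1.73, 0 and 0 TPM in layer 2 and 2.83, 2.57 and 2.36 TPM in layer 3. Leaving out P3 layer 2 replicate 2 raised the adjusted p to 0.16. The median difference of this list and that of the motile cilium list were not tested against each other.

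Markers of microglia, vessels, choroid plexus and blood followed single libraries more than layers. No microglia gene of 20 was called (median 0.51, or -0.13 without the 3 libraries that stood apart), and their summed level was 2447, 5516 and 2950 TPM in layer 2 and 1573, 2673 and 3113 TPM in layer 3. Spp1, the secreted phosphoprotein osteopontin, measured 1876, 3388 and 3404 TPM in the layer 2 libraries and 164, 891 and 569 TPM in the layer 3 libraries (2.67 ± 0.66, adjusted p = 0.022), and lost its call without P3 layer 2 replicate 2 (adjusted p = 0.087). Vascular and meningeal genes summed to 35, 77 and 53 TPM in layer 2 and 447, 112 and 67 TPM in layer 3, choroid plexus genes to 66, 97 and 80 TPM and 316, 77 and 48 TPM, and erythroid genes to 164, 910 and 177 TPM and 196, 250 and 126 TPM. Layer 3 replicate 1 alone stood high in the first pair of lists. In that library Ttr, the choroid plexus transthyretin, was at 234 TPM and Slc6a13, a meningeal GABA transporter, at 65.6 TPM, against at most 2.15 and 12.3 TPM in the other 5. Slc6a13 was lower in layer 2 by -2.76 ± 0.69 (adjusted p = 0.025), as were Slc6a20a and Fgfbp1, each highest in the same library. Slc6a20a was under 1 TPM in all layer 2 libraries and Uty is listed at 0 there, so both entered the test only through layer 3, and their calls are no support for a difference. The calls of Slc6a13 and Fgfbp1 ended without P3 layer 2 replicate 1 (adjusted p = 0.085 and 0.097), and that of Slc6a20a without P3 layer 2 replicate 3 (adjusted p = 0.064).

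Sex was not balanced over the P3 pools. The Y-linked genes were lower in layer 2 in all 3 tested members. Eif2s3y measured 0, 0 and 8.35 TPM in the layer 2 libraries and 32.7, 23.7 and 98.9 TPM in the layer 3 libraries and Ddx3y 0, 0 and 1.198 TPM in the layer 2 libraries and 8.98, 4.07 and 23.5 TPM in the layer 3 libraries, so that a pair of layer 2 libraries had none of either. Uty was listed at 0 in every layer 2 library and at 1.05, 2.28 and 3.54 TPM in layer 3. The part of sex in the layer differences was not tested beyond the fit with the Y-linked score given above.

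The same comparison at P7, in 6 libraries that share none with P3, called 73 of the 16274 genes (0.449%). Both ages came from the same fit, with the same estimate of spread for a gene, over genes filtered on the P3 libraries. The calls at P3 and P7 are therefore not independent of each other. Of the 1653 genes called at P3, 38 were called in the same direction at P7, which is 2.30% of the P3 calls and 52.1% of the P7 calls, and 3 in the opposite one. Without regard to a call at P7, 1352 of the 1653 had the same sign there. How many of all tested genes kept their sign was not counted, so this number has no background beside it. Rorb was at 6.27 ± 0.875 TPM in P7 layer 2 and 60.6 ± 17.9 TPM in P7 layer 3, a log2 fold change of -3.05 ± 0.34 (adjusted p = 0.0014). Foxp1 averaged 27.7 ± 6.55 and 127 ± 33.5 TPM (-2.15 ± 0.22, adjusted p = 0.00099). Fgf9 averaged 1.41 ± 0.979 and 15.6 ± 4.63 TPM (-2.82 ± 0.34, adjusted p = 0.0026). Lower at both ages were also Grm2 (P7 -1.68 ± 0.21, adjusted p = 0.0041), Rgs13 (P7 -2.82 ± 0.44, adjusted p = 0.015), Pcdh20 (P7 -2.05 ± 0.34, adjusted p = 0.023), Slc17a7 (P7 -0.92 ± 0.17, adjusted p = 0.031) and Camk2a (P7 -0.82 ± 0.15, adjusted p = 0.035). Of the motile cilium list 2 genes were higher at P7, Dynlrb2 (2.36 ± 0.43, adjusted p = 0.032) and Tmem212, and the list median was 0.43 against -0.04 for all genes. Foxj1 averaged 9.84 ± 2.95 and 3.22 ± 0.691 TPM at P7 (1.34 ± 0.39, adjusted p = 0.21).

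**Figure D5:**
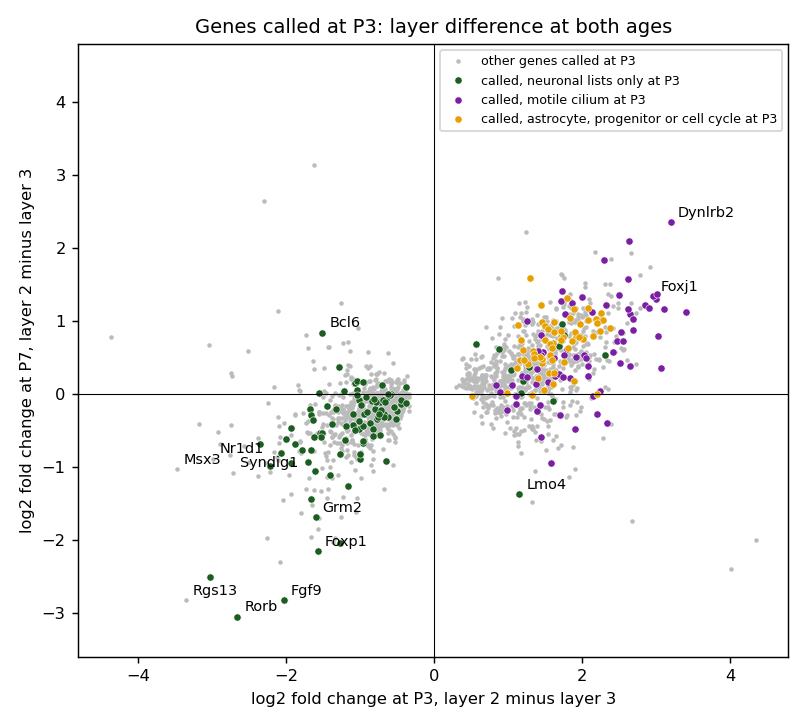
Log2 fold change, layer 2 minus layer 3, at P7 (vertical) against P3 (horizontal) for the 1653 genes called at P3, coloured by gene list. Rorb, Foxp1 and Grm2 lie low at both ages, Lmo4 is above 0 at P3 and below 0 at P7, and Bcl6 is below 0 at P3 and above 0 at P7.

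Whether a layer difference was larger at one age was tested as the P3 difference minus the P7 difference, and 29 of the 16274 genes (0.178%) passed. Lmo4 changed direction: after a P3 difference of 1.15 it averaged 188 ± 72.8 TPM in P7 layer 2 and 459.7 ± 53.5 TPM in P7 layer 3 (-1.37 ± 0.27, adjusted p = 0.046). The difference between the ages was 2.52 ± 0.38 (adjusted p = 0.02). Bcl6 was lower in layer 2 at P3 and stood at 0.84 ± 0.22 at P7 (adjusted p = 0.15), and the ages differed by -2.35 ± 0.31 (adjusted p = 0.011). Nr1d1 was at 42.1 ± 2.997 and 79.02 ± 9.34 TPM at P7 (-0.89 ± 0.20, adjusted p = 0.074), and its difference was lower at P3 by -2.11 ± 0.28 (adjusted p = 0.011). Brinp1 (-1.87 ± 0.26, adjusted p = 0.014), Syndig1 (-1.64 ± 0.29, adjusted p = 0.042) and Cplx2 (-1.22 ± 0.21, adjusted p = 0.04) also had a lower difference at P3. For Rorb the ages differed by 0.39 ± 0.48 (adjusted p = 0.78), and for Foxp1 by 0.58 ± 0.31 (adjusted p = 0.5), neither past the threshold. Without P3 layer 3 replicate 3 the count of 29 was 1, and without P3 layer 3 replicate 2 it was 107.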

How the data were processed

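RNA from sorted cortical projection neurons was measured in 12 libraries, 3 per layer and age. Per the labels' protocols, the RNeasy mini kit and the SMART-Seq mRNA LP kit were used. HISAT2, StringTie, featureCounts and the build GRCm39 are named by the submitters' processing notes, without versions. The authors deposited TPM values per gene, each column summing to 1000000, so sequencing depth is unknown and sets no error on a single value. Reads shared between related or overlapping genes leave those levels uncertain, and no strand setting is named.

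Sample labels gave the groups. Values were transformed to log2(TPM + 1) and fitted in limma 3.58.1 (R 4.3.3) with a trend and 1 mean for each of the 4 groups, leaving 8 residual degrees of freedom. Tested genes had at least 1 TPM in at least 3 of the 6 P3 libraries. The contrasts were layer 2 minus layer 3 at P3, at P7, and the P3 minus the P7 difference, each with Benjamini-Hochberg adjustment over 16274 genes and a threshold of 0.05. With 3 libraries against 3, the smallest p of an exact permutation test is 0.1. A list score is the mean log2(TPM + 1) of its members. On simulated data with 200 changed genes in 20 draws, 51.8% of log2 changes of 1 and 90.4% of changes of 2 were recovered. False calls there were 5.16%. The share of false calls in the measured libraries was not tested.

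The members, the 26 lists, the tests and the alternatives were chosen with earlier results of these data known. Genes named were up to 8 called genes per direction with the largest change, TPM ranges apart and at least 5 TPM in the higher layer, up to 15 more per direction outside the lists of other cells, up to 4 called members per direction of each list, and a set of identity markers. Some genes that meet this rule are not reported here. Further genes, picked once values were known, are marked so in the text, as were Tmem212, Rsph1 and the genes whose promoters are shown. Alternatives were pseudocounts, filters, scalings, weights, a block, covariates and left-out libraries. Promoters came from RefSeq (GRCm38.p6) and were matched by symbol. Figures were drawn with matplotlib 3.10.9.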

Additional observations from a re-analysis of the deposited data

Results flagged for a closer look

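The groups have 3 libraries each, too few for a test of single libraries as outliers. The layer difference itself differed between P3 and P7, by the test of that difference, for 7 of the genes named by rule and for 4 genes named after their values were seen. For the 7 the P3 difference minus the P7 difference, on the log2 scale, was 2.52 for Lmo4, -2.35 for Bcl6, -2.11 for Nr1d1, -1.87 for Brinp1, -1.64 for Syndig1, -1.22 for Cplx2 and -3.10 for Krt12. Their adjusted p-values in limma were 0.02, 0.011, 0.011, 0.014, 0.042, 0.04 and 0.046. For the other 4 it was -2.13 for Vsnl1, -0.91 for Ngef, -1.64 for Dbp and 2.73 for Rsph1, with adjusted p-values of 0.0014, 0.04, 0.042 and 0.04. Krt12 measured 2.08, 1.35 and 0.432 TPM in the layer 2 libraries and 10.3, 6.58 and 21.6 TPM in the layer 3 libraries at P3 and averaged 8.59 ± 2.63 and 5.24 ± 0.792 TPM at P7.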

How the results depend on the processing

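Most named genes kept direction and call under pseudocounts, filters, scalings, weights, the block and single left-out libraries, and most calls ended with a score in the model. Among called genes, adjusted by the cell cycle score, signs turned for Spp1 -0.48, Scrg1 -0.26, Ptprz1 -0.30, Olig1 -0.39, Olig2 -0.62, Mlc1 -0.46, Fabp7 -0.19, Hes5 -0.042, Ccnb1 -0.0017, Mfge8 -0.31, Slc1a3 -0.46, Acsbg1 -0.65, Sox6 -0.16, Nfia -0.12, Nptx2 -0.029, Smo -0.23 and Egr1 -0.25 on the log2 scale, and adjusted by the motile cilium score for Cfap141 -0.72, Ppp1r32 -0.27, Got1l1 -1.05, Riiad1 -0.22, Dmkn -0.85, Calml4 -0.59, Scnn1a -0.27, Tubb2a 0.084, Eno2 0.15, Kcnma1 0.30, Kif17 0.32, Hs3st5 0.65 and Ostn 0.39. Named genes that were not called turned in 6, 7, 9, 7 and 5 cases with the astrocyte, cell cycle, motile cilium, pan-neuronal and Y-linked scores, among them Aqp4 -1.17, Gfap -1.31 and Mbp -2.19 with the cell cycle score. List medians that had exceeded the spread of the list's score between replicates turned to pan-neuronal 0.025, cortical projection neuron identity 0.20, immature neuron 0.16 and ion channel 0.032 with pan-neuronal scaling, to oligodendrocyte lineage -0.41 with the astrocyte score, to deep-layer neuron -0.049, astrocyte -0.62, oligodendrocyte lineage -1.51 and interneuron -0.34 with the cell cycle score, to pan-neuronal 0.077, cortical projection neuron identity 0.019, immature neuron 0.095, postsynaptic 0.057, ion channel 0.25, neurotransmitter receptor 0.064, primary cilium and intraflagellar transport genes -0.0013 and interneuron -0.13 with the motile cilium score, to cortical projection neuron identity 0.19, immature neuron 0.022, oligodendrocyte lineage -0.11 and interneuron -0.029 with the pan-neuronal score and to deep-layer neuron -0.096 and oligodendrocyte lineage -0.048 with the Y-linked score. Smaller list medians turned in 2, 4, 6, 5 and 4 lists with those 5 scores, among them microglia from 0.51 to -0.51, -1.59, -0.90, -0.94 and -0.025. The cause was not tested, and these scores differ between the layers. Ccnb1 is a member of the cell cycle score, and Cfap141 and Ppp1r32 are members of the motile cilium score. Pan-neuronal scaling is made from the pan-neuronal list. In those cases a value near 0 or past it was largely set in advance.

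Counts over all genes are given as total, higher and lower in P3 layer 2, against 1653, 886 and 767. They were 3863, 3551 and 312 with pan-neuronal scaling, 1046, 680 and 366 in the P3 libraries alone, 4737, 2803 and 1934 with array weights, whose estimation stopped before it converged, and 965, 664 and 301 where a log2 fold change of 1 either way was also required. With scores in the model they were 239, 91 and 148 (astrocyte), 15, 1 and 14 (cell cycle), 0, 0 and 0 (motile cilium), 14, 0 and 14 (pan-neuronal) and 6, 0 and 6 (Y-linked). At an unadjusted p under 0.05 the motile cilium score left 511 genes, the pan-neuronal score 1663 and the Y-linked score 1496. Without the 3 libraries that stood apart they were 542, 160 and 382. The share of higher genes among those called was 53.6%, and 45.3% with median-ratio scaling, 45.8% with quantile normalization and 91.9% with pan-neuronal scaling. Leaving out 1 library gave totals of 626 to 2052, higher genes of 246 to 1350 and lower genes of 380 to 742.

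The 73 genes called at P7 became 119 with a pseudocount of 5, 40 with pan-neuronal scaling, 412 with array weights, 10 with the motile cilium score and 13 with the pan-neuronal score, and 14 to 90 when 1 library was left out, with 14 without P7 layer 2 replicate 2. The 29 genes whose layer difference differed between the ages became 16 with no filter, 17 with pan-neuronal scaling, 1029 with array weights, 13, 3, 0, 19 and 0 with the astrocyte, cell cycle, motile cilium, pan-neuronal and Y-linked scores, 7 without the 3 libraries, and 1 to 107 when 1 library was left out. With the replicate number as a block, 1596 genes were called at P3, 901 higher and 695 lower. Over all tested genes, P3 libraries with the same number did not deviate together (r of -0.04, -0.11 and -0.01), which cannot exclude that the numbers pair samples. Y-linked genes summed highest in replicate 3 of each group. They stood there at 10.02 and 128 TPM in P3 layers 2 and 3, and at 100.1 and 48.2 TPM in P7 layers 2 and 3. In limma the adjusted p of Eif2s3y at P3 was 0.00011 with the block and 0.0054 without it. Whether the numbers pair the samples was not settled.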

Other observations

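Clock genes, looked at together after Nr1d1 had been seen, were lower in layer 2 at P3 in 7 of 19 measured members and higher in none, with a median log2 fold change of -0.32. The background share of lower genes was 4.71%, and since the group was formed after a member's value was known, no test was made of it. Dbp, a leucine-zipper factor under direct clock control, measured 16.7, 18.4 and 10.9 TPM in the layer 2 libraries and 73.2, 49.8 and 73.4 TPM in the layer 3 libraries (-2.04 ± 0.20, adjusted p = 0.00018 in limma). Hlf, a factor of the same family, measured 3.71, 4.24 and 3.796 TPM in the layer 2 libraries and 13.2, 11.9 and 14.4 TPM in the layer 3 libraries (-1.52 ± 0.20, adjusted p = 0.00076). Nr1d2, the second REV-ERB repressor, measured 12.5, 6.03 and 8.49 TPM in the layer 2 libraries and 14.02, 28.4 and 32.04 TPM in the layer 3 libraries (-1.34 ± 0.29, adjusted p = 0.011), and Ciart, a clock repressor, measured 13.3, 7.33 and 9.42 TPM in the layer 2 libraries and 20.1, 25.4 and 24.7 TPM in the layer 3 libraries (-1.18 ± 0.20, adjusted p = 0.003). The layers were apart in all 4. The Dbp difference was lower at P3 than at P7 by the test of that difference (-1.64 ± 0.29, adjusted p = 0.042). Npas2 and Arntl, which encode activators of the clock, were lower by -1.08 ± 0.25 and -0.83 ± 0.23 (adjusted p = 0.016 and 0.04), whereas Clock was at 0.29 (adjusted p = 0.69) and Per2 at 0.27 (adjusted p = 0.72). At P7 1 of the 19, Hlf, was lower (-1.02 ± 0.20, adjusted p = 0.043). The hour at which the pups were taken is not in the labels.

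Rsph1, a radial spoke protein chosen after its values were seen, measured 70.7, 176 and 76.7 TPM in the layer 2 libraries and 14.1, 24.9 and 18.5 TPM in the layer 3 libraries at P3 (2.34 ± 0.33, adjusted p = 0.0011) and was at -0.39 ± 0.33 at P7 (adjusted p = 0.77). It was the 1 motile cilium gene whose layer difference differed between the ages, by 2.73 ± 0.47 (adjusted p = 0.04).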
